A study of Mus musculus with 14 samples.

Results

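Mitochondrial iron import and iron-sulfur cluster assembly were followed through 8 genes in ribosome-bound mRNA of mouse dopaminergic neurons. The genes are Slc25a37, Slc25a28, Nfs1, Iscu, Hspa9, Hscb, Glrx5 and Isca1. They were chosen by name for their place in the pathway, with earlier results of these data known. Of 45037 probe sets tested on the Affymetrix arrays, 15 belonged to these genes and to no other gene. Hspa9 had 5 of them, Nfs1 3, Isca1 2 and each other gene 1. A further probe set matched both Slc25a37 and another gene and was left out.

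The 14 libraries came from ventral midbrain lysates of RiboTag mice, in which tagged ribosomes of a chosen cell type are pulled out with their mRNA. Tfr1-null animals (Tfr1ΔDN) lacked transferrin receptor 1, the receptor for transferrin-bound iron encoded by Tfrc, in dopaminergic neurons. There were 4 Tfr1-null and 3 control libraries at 3 weeks of age, and 3 Tfr1-null and 4 control libraries at 10 weeks. Controls were not wild type but heterozygous for the Tfr1 allele, and all animals were an F2 of 129Sv and C57BL/6 that carried RiboTag. The sources used here do not give the driver of the deletion, the number of animals per library or whether replicates were separate animals, so the p values may measure technical spread. The submitters call 3 weeks early and 10 weeks late neurodegeneration.

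Iron-sulfur clusters are small cofactors of iron and sulfide that carry electrons in the respiratory chain and serve enzymes such as aconitase. The mitoferrins Slc25a37 and Slc25a28 bring iron across the inner mitochondrial membrane, Nfs1 takes sulfur from cysteine, and the cluster is built on the scaffold Iscu. The chaperone Hspa9 (mortalin) with its co-chaperone Hscb then releases the cluster to Glrx5, and Isca1 takes part in building the larger clusters. Dopaminergic neurons hold much iron, and loss of complex I activity, which depends on such clusters, is a known feature of Parkinson's disease.

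At 10 weeks Hspa9 rose and Iscu fell in Tfr1-null neurons once 2 libraries with doubtful labels were left out. At 3 weeks neither passed, and the difference between the ages passed for no probe set of the 8 genes. The fit shared a single spread per probe set between the ages. With each age fitted alone, no probe set of the 8 genes passed. In the remaining 12 libraries, 3 probe sets of Hspa9 were 1.62-fold, 1.63-fold and 2.60-fold higher in Tfr1-null, and the probe set of Iscu stood at 0.689 of control. No probe set of the other 6 genes passed the test at either age. With all 14 libraries as labelled, no probe set of the 8 genes passed at either age.

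The targeted gene Tfrc checks the labels. Its signal was lower in all Tfr1-null libraries but Tfr1-null 3 weeks 1 only at the probe set for the 5′ part of the transcript, and higher in them at the probe sets for the middle and the 3′ part. The sources used here do not say which exons were deleted. At the middle probe set Tfr1-null 3 weeks 2 to 4 read 10.70 to 10.98 log2 units, against 8.80 to 8.86 in controls of that age, and Tfr1-null 10 weeks 1 to 3 read 11.39 to 11.69, against 9.17 to 9.86 in control 10 weeks 2 to 4. The library labelled Tfr1-null 3 weeks 1 read 8.82, among the controls, and the library labelled control 10 weeks 1 read 11.43, among the Tfr1-null libraries. At the 5′ probe set Tfr1-null 3 weeks 2 to 4 read 6.88 to 7.73, Tfr1-null 3 weeks 1 read 9.67 and the controls 9.50 to 9.59. At 10 weeks it read 7.79 to 9.29 in Tfr1-null, 8.55 in control 10 weeks 1 and 9.63 to 10.44 in the other controls. The source name of Tfr1-null 3 weeks 1 also says control. Both libraries were left out for these reasons, not for values of the 8 genes, and were moved to no other group. The Y-linked genes Eif2s3y and Kdm5d against Xist marked control 3 weeks 2 as male and the other 6 libraries of that age as female, whereas all 7 of the 10-week libraries were male by these genes. Age is thus mixed with sex in every comparison between the ages. All 10 dopaminergic markers, among them Th and Slc6a3, lay above the 25th percentile of the array in all 14 libraries. The median signal of an array was 6.41 to 6.47 in the 3-week libraries and 7.36 to 7.43 in the 10-week ones, so signals of the 2 ages are not on 1 scale.

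**Figure D1:**
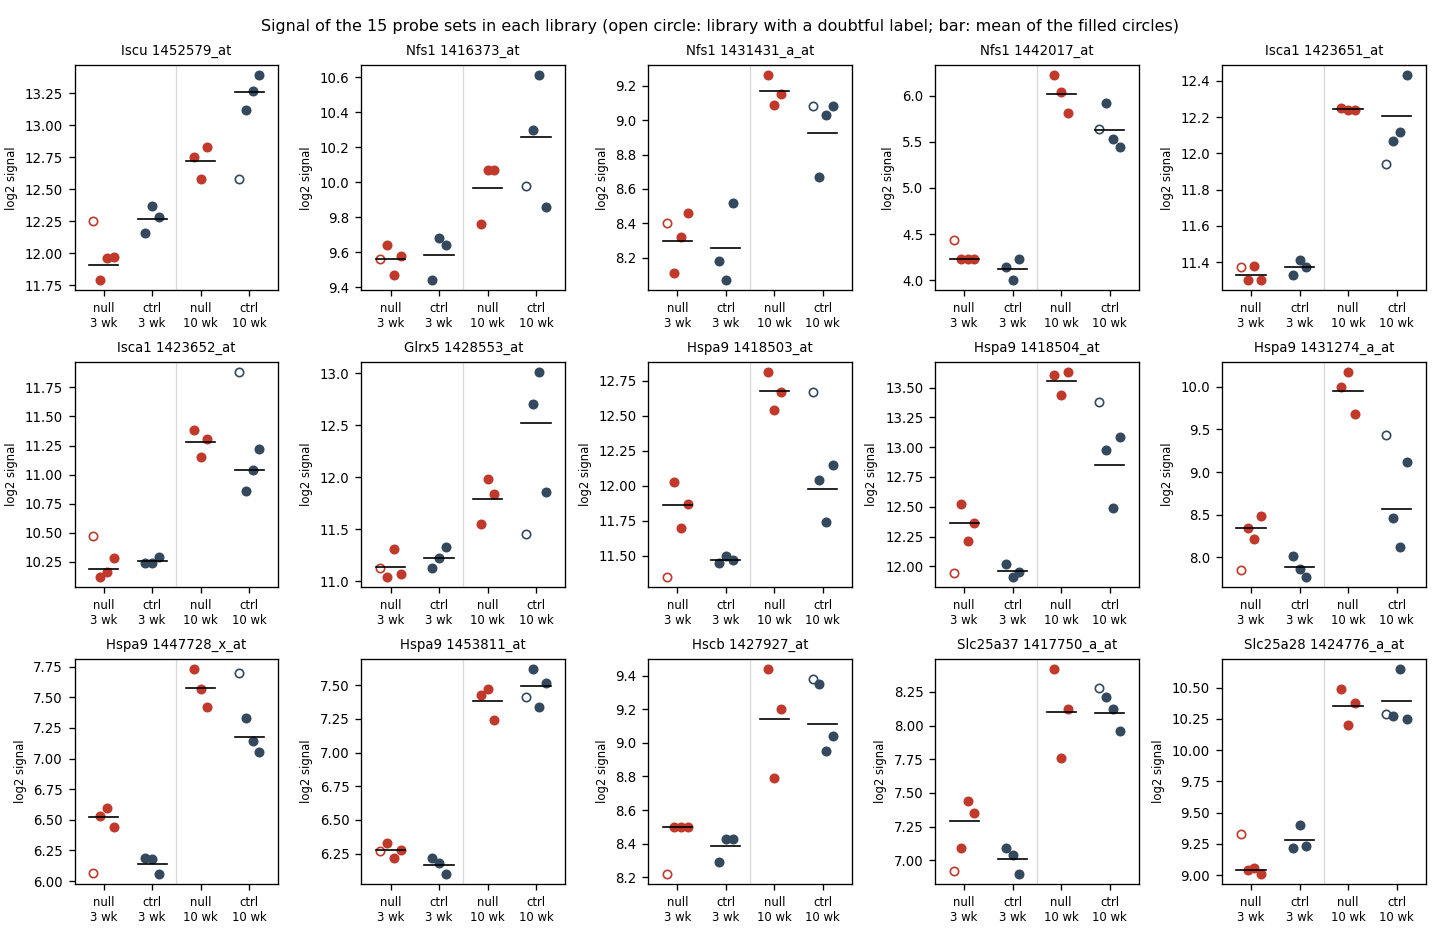
Log2 signal (y axis, its range set for each panel) of the 15 probe sets in each library, by group (x axis, null for Tfr1-null and ctrl for control, wk for weeks). Open circles are Tfr1-null 3 weeks 1 and control 10 weeks 1, and bars are means of the filled circles. At 10 weeks the filled circles of Tfr1-null lie below control for Iscu and above it for 4 of the 5 Hspa9 probe sets.

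The call counts were read against all probe sets, with limma across the table and Benjamini-Hochberg adjustment. At 10 weeks in 12 libraries 4 of the 15 probe sets passed at an adjusted p under 0.05, 3 higher and 1 lower in Tfr1-null, where 6.76% of all probe sets passed, 3.22% higher and 3.54% lower. The 3 higher ones belong to 1 gene. Taken by gene, with the probe set of highest mean signal, 2 of 8 passed, beside 8.75% of all genes. These are few genes, chosen with earlier results of these data known, and the shares are a description. With 14 libraries limma called 0 of 15 at 10 weeks, where 0.377% of all probe sets passed, and 4 of 15 had an unadjusted p under 0.05, beside 17.2% of all probe sets. In 12 libraries that count was 7 of 15, beside 22.2%. At 3 weeks limma called 0 of 15 in 14 libraries and 0 of 15 in 12 libraries, where 0% and 0.797% of all probe sets passed. The unadjusted p was under 0.05 for 0 of 15 in 14 libraries, beside 3.62% of all probe sets, and for 4 of 15 in 12 libraries, beside 8.09%. In 12 libraries the groups did not overlap for 7 of 15 probe sets at 3 weeks, beside 20.1% of all probe sets, and for 6 of 15 at 10 weeks, beside 18.8%. Hspa9 gave 4 of these at each age. In 14 libraries 0 of 15 were without overlap at 3 weeks, beside 6.76%, and 3 of 15 at 10 weeks, beside 8.66%. The difference between the ages passed for 0 of 15 in either library set, where 0% of all probe sets passed in 14 libraries and 0.14% in 12, and 1 of 15 had an unadjusted p under 0.05 in each, beside 6.88% of all probe sets in 14 libraries and 10.7% in 12.

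Hspa9, the mitochondrial heat shock chaperone that also pulls proteins through the inner membrane, rose at 10 weeks in 12 libraries. At probe set 1431274_a_at the signal was 10.00, 10.17 and 9.68 log2 units in Tfr1-null 10 weeks 1 to 3, against 8.46, 8.12 and 9.12 in control 10 weeks 2 to 4. Control 10 weeks 1 read 9.43. Every Tfr1-null library thus lay above every control, and control 10 weeks 1 was the highest of the 4 controls. The difference was 1.38 log2 units (SE 0.22, limma adjusted p = 0.00572, 3 libraries per group). This SE comes from a single spread shared by both ages. The SD at 10 weeks was 0.25 in Tfr1-null and 0.51 in control, against 0.14 and 0.13 at 3 weeks. With each age fitted alone, the limma adjusted p at 10 weeks was 0.125.

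A like order of libraries was seen at 2 more Hspa9 probe sets. Probe set 1418504_at read 13.61, 13.44 and 13.63 in Tfr1-null, against 12.98, 12.49 and 13.09 in control 10 weeks 2 to 4 and 13.38 in control 10 weeks 1. Its difference in 12 libraries was 0.71 (SE 0.15, limma adjusted p = 0.0204). Probe set 1418503_at read 12.81, 12.54 and 12.67 in Tfr1-null, against 12.04, 11.74 and 12.15 in control 10 weeks 2 to 4. Here control 10 weeks 1, at 12.67, lay within the Tfr1-null range. The difference without it was 0.69 (SE 0.13, limma adjusted p = 0.0112). Exact two-sided permutation tests on the 12 libraries gave p = 0.1 for each of these 3 probe sets, the smallest p that 3 against 3 libraries allow.

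The remaining 2 Hspa9 probe sets did not pass. Probe set 1447728_x_at, of a type that can also bind other transcripts, averaged 7.57 ± 0.15 in Tfr1-null and 7.17 ± 0.14 in control at 10 weeks (SD, n = 3 each), with groups that did not overlap and an adjusted p of 0.0574 in limma. Probe set 1453811_at averaged 7.38 ± 0.12 in Tfr1-null and 7.50 ± 0.14 in control, a difference of -0.12 (95% interval -0.34 to 0.11, limma adjusted p = 0.566). The last probe set did not follow the others. Its correlation with them, over 14 libraries after the mean of each age was subtracted, lay between -0.04 and 0.10, whereas the other 4 correlated with each other at 0.69 to 0.97. These libraries share genotype groups and arrays, so the correlations only describe how far probe sets of 1 gene agree.

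Without the 2 doubtful libraries, Hspa9 already stood higher in Tfr1-null at 3 weeks, though not past the test. Probe set 1418503_at read 12.03, 11.70 and 11.87 in Tfr1-null 3 weeks 2 to 4, against 11.45, 11.50 and 11.47 in control, with a difference of 0.39 (SE 0.13, limma adjusted p = 0.338). Tfr1-null 3 weeks 1 read 11.35, below all controls. Differences at the probe sets 1418504_at, 1431274_a_at and 1447728_x_at were 0.40, 0.46 and 0.38, each with groups that did not overlap. The difference between the ages did not pass for any Hspa9 probe set. It was largest at 1431274_a_at, at 0.92 more at 10 weeks (95% interval 0.22 to 1.62, limma adjusted p = 0.328).

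Iscu, the scaffold on which the cluster is first built, fell at 10 weeks in 12 libraries. Its probe set 1452579_at read 12.75, 12.58 and 12.83 in Tfr1-null 10 weeks 1 to 3, against 13.12, 13.27 and 13.39 in control 10 weeks 2 to 4. Control 10 weeks 1 read 12.58, level with the lowest Tfr1-null library. Without that library the groups did not overlap, and the difference was -0.54 (SE 0.11, 95% interval -0.78 to -0.29, limma adjusted p = 0.0171, 3 libraries per group). As labelled, with 14 libraries, it was -0.37 (SE 0.17, limma adjusted p = 0.295).

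Iscu also stood lower at 3 weeks without passing the test. It read 11.79, 11.96 and 11.97 in Tfr1-null 3 weeks 2 to 4, against 12.16, 12.37 and 12.28 in control. Tfr1-null 3 weeks 1, at 12.25, lay inside the control range. The difference in 12 libraries was -0.37 (SE 0.11, limma adjusted p = 0.261). Between the ages it differed by -0.17 (95% interval -0.51 to 0.18, limma adjusted p = 0.736), so a larger fall at 10 weeks was not shown.

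The number of calls changed with the fit. In 12 libraries at 10 weeks the 4 calls became 0 when each age was fitted alone, where 0.495% of all probe sets passed. They became 1, the Hspa9 probe set 1431274_a_at, with array weights, where 2.34% passed. The call of 1418504_at was lost without Tfr1-null 10 weeks 1 (adjusted p = 0.0598) or Tfr1-null 10 weeks 3 (0.0605). At 3 weeks array weights called 4 of 15, beside 4.05% of all probe sets, namely Iscu (adjusted p = 0.0342) and the Hspa9 probe sets 1418503_at, 1418504_at and 1447728_x_at (0.0317, 0.0403 and 0.0268).

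**Figure D2:**
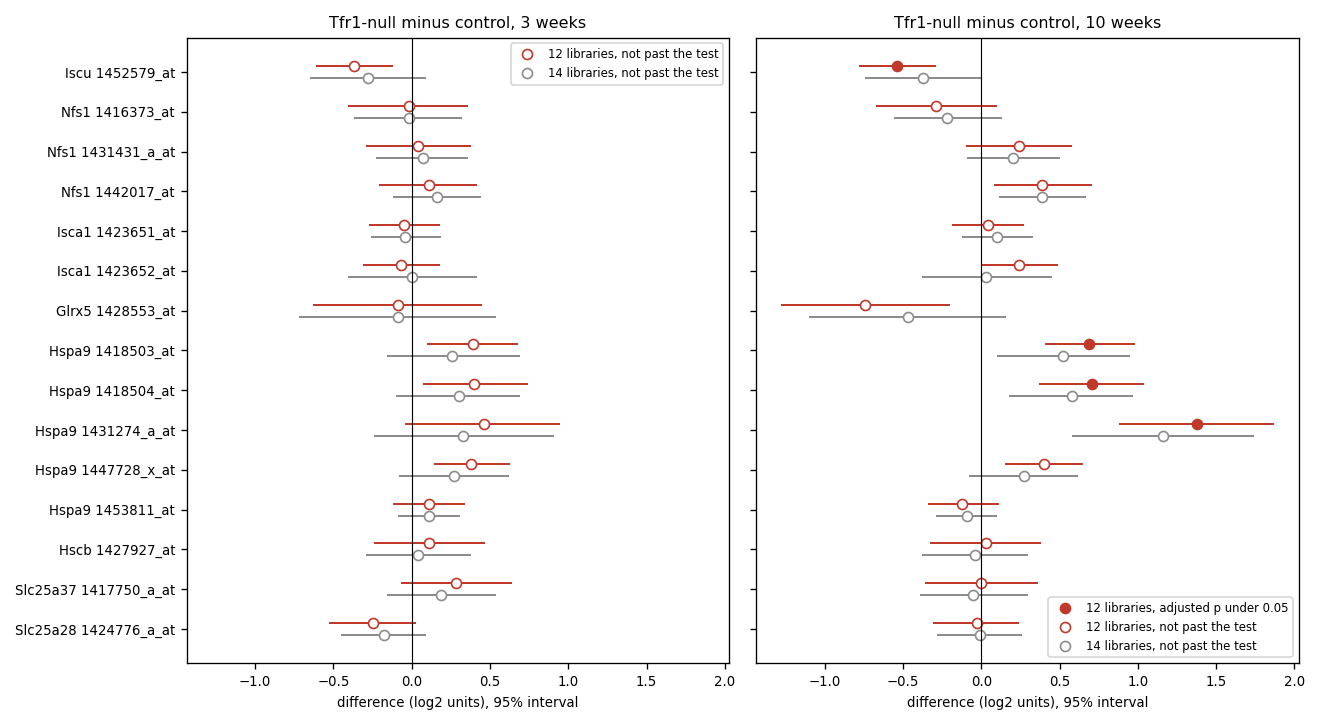
Tfr1-null minus control in log2 units (x axis) for the 15 probe sets (y axis) at 3 weeks and at 10 weeks, with 95% intervals from limma, in 12 libraries (red) and 14 libraries (grey). Filled points passed an adjusted p under 0.05, which holds for Iscu and 3 Hspa9 probe sets at 10 weeks in 12 libraries.

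The mitoferrins did not pass the test. Slc25a37 (mitoferrin 1), the main iron importer of developing red cells, read 7.09, 7.44 and 7.35 at probe set 1417750_a_at in Tfr1-null 3 weeks 2 to 4, against 7.09, 7.04 and 6.90 in control. The difference was 0.28 (95% interval -0.07 to 0.64, limma adjusted p = 0.795), with groups that met at 7.09. At 10 weeks it read 8.42, 7.76 and 8.12 in Tfr1-null, against 8.21, 8.12 and 7.96 in control 10 weeks 2 to 4, and the interval of the difference ran from -0.36 to 0.36. The summed signal of 4 erythroid markers overlapped between the groups at both ages, and at 10 weeks in 12 libraries ranged over 8.14 to 8.34 in Tfr1-null, against 8.29 to 8.45 in control.

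Slc25a28 (mitoferrin 2), the importer of most other cells, was lower in Tfr1-null at 3 weeks without passing. It read 9.04, 9.06 and 9.01 in Tfr1-null 3 weeks 2 to 4, against 9.22, 9.40 and 9.23 in control. Tfr1-null 3 weeks 1, at 9.33, lay among the controls. The difference in 12 libraries was -0.25 (95% interval -0.53 to 0.03, limma adjusted p = 0.716). At 10 weeks the groups overlapped, at 10.49, 10.20 and 10.38 in Tfr1-null, against 10.27, 10.65 and 10.25 in control 10 weeks 2 to 4, with an interval of -0.31 to 0.24. With 3 libraries per group, differences anywhere within these intervals remain compatible with the data.

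Nfs1, the cysteine desulfurase that supplies sulfur, differed in sign between its 3 probe sets. At 10 weeks in 12 libraries 1416373_at averaged 9.97 ± 0.18 in Tfr1-null and 10.25 ± 0.38 in control, a difference of -0.29 (limma adjusted p = 0.376). Probe set 1431431_a_at averaged 9.17 ± 0.09 in Tfr1-null and 8.93 ± 0.22 in control, a difference of 0.24 with groups that did not overlap (limma adjusted p = 0.404). The dim probe set 1442017_at read 6.22, 6.04 and 5.81 in Tfr1-null, against 5.92, 5.53 and 5.44 in control 10 weeks 2 to 4, where 5.44 lay under the 25th percentile of its array (limma adjusted p = 0.133). At 3 weeks that probe set was under the 25th percentile in all of the 3-week libraries of the 12 and has no fold change there. The other 2 differed by -0.02 and 0.04 at 3 weeks, so Nfs1 had no common direction.

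Hscb, the co-chaperone that hands Iscu to Hspa9, differed little. It read 8.50, 8.50 and 8.50 in Tfr1-null 3 weeks 2 to 4, against 8.29, 8.43 and 8.43 in control (difference 0.11, limma adjusted p = 0.994). The groups did not overlap, but the gap was small. At 10 weeks it read 9.44, 8.79 and 9.20 in Tfr1-null, against 9.35, 8.95 and 9.04 in control 10 weeks 2 to 4. The interval of that difference was -0.33 to 0.38.

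Glrx5, the mitochondrial glutaredoxin that carries clusters onward from the scaffold, had the largest difference among the genes that did not pass. It read 11.55, 11.98 and 11.84 in Tfr1-null at 10 weeks, against 12.70, 13.01 and 11.86 in control 10 weeks 2 to 4. Control 10 weeks 4 lay within the Tfr1-null range, and control 10 weeks 1, at 11.45, lay below it. The difference was -0.74 in 12 libraries (95% interval -1.28 to -0.20, limma adjusted p = 0.103) and -0.47 in 14 (limma adjusted p = 0.441). It turned on single controls. Without control 10 weeks 4 it was -1.07 and passed (limma adjusted p = 0.00514), and without control 10 weeks 3 it was -0.49 and did not (limma adjusted p = 0.259). At 3 weeks Glrx5 differed by -0.09 (95% interval -0.63 to 0.45).

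Isca1, which takes part in making the 4-iron clusters of aconitase and other enzymes, did not pass at either probe set. Probe set 1423651_at read 12.25, 12.24 and 12.24 in Tfr1-null at 10 weeks, against 12.07, 12.12 and 12.43 in control 10 weeks 2 to 4, with an interval of -0.19 to 0.27. The other, 1423652_at, read 11.38, 11.15 and 11.31 in Tfr1-null, against 10.86, 11.04 and 11.22 in those controls (difference 0.24, limma adjusted p = 0.227). Control 10 weeks 1 stood apart there at 11.88, above all other libraries. At 3 weeks the 2 probe sets differed by -0.05 and -0.07.

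Seen against the median of each array, Tfr1-null lay below control for Iscu and above it for the 3 called Hspa9 probe sets at both ages, in 12 libraries. At 3 weeks Iscu lay 5.48 ± 0.09 log2 units over the median in Tfr1-null and 5.83 ± 0.10 in control (SD, n = 3 each). At 10 weeks it lay 5.33 ± 0.09 over it in Tfr1-null and 5.87 ± 0.14 in control. The 2 control groups differed by less than their spread. Hspa9 at 1418504_at lay 5.94 ± 0.16 over it in Tfr1-null and 5.51 ± 0.06 in control at 3 weeks, and 6.17 ± 0.08 over it in Tfr1-null and 5.47 ± 0.33 in control at 10 weeks. Probe set 1418503_at lay 5.45 ± 0.17 over it in Tfr1-null and 5.03 ± 0.03 in control at 3 weeks, and 5.28 ± 0.13 in Tfr1-null and 4.60 ± 0.23 in control at 10 weeks. Probe set 1431274_a_at lay 1.92 ± 0.14 over it in Tfr1-null and 1.44 ± 0.14 in control at 3 weeks, and 2.56 ± 0.28 in Tfr1-null and 1.19 ± 0.52 in control at 10 weeks. Within Tfr1-null, 1418503_at was thus lower and the other 2 higher at 10 weeks than at 3 weeks. Ages were not tested against each other within a genotype, since the arrays of the 2 ages differ in the shape of their signals. By the sex genes the Tfr1-null libraries were female at 3 weeks and male at 10 weeks, so age and sex cannot be told apart there.

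Markers of the cells themselves moved with these results. The summed signal of 10 dopaminergic markers was 16.58 to 16.84 in Tfr1-null and 16.97 to 17.04 in control at 10 weeks in 12 libraries. At 3 weeks it was 15.95 to 16.02 in Tfr1-null and 16.12 to 16.16 in control, so the groups did not overlap at either age. In 12 libraries at 10 weeks 2 of the 10 passed, beside 8.75% of all genes, with Drd2 and Foxa1 lower by 0.85 and 0.86. En1 and Nr4a2 differed the other way, by 0.01 and 0.10. At 3 weeks 0 of the 10 passed, beside 1.31%. With 14 libraries 0 of the 10 passed at either age. The 10-week sums then overlapped, at 16.58 to 16.84 in Tfr1-null and 16.61 to 17.04 in control. In such bulk samples fewer cells of a type and less RNA per cell cannot be told apart. The part of the dopaminergic marker shift in the values of Iscu and Hspa9 was not tested. Of 40 markers of other cells 1 passed at 10 weeks in 12 libraries, beside 8.75% of all genes. It was the vesicular GABA transporter gene Slc32a1, which rose by 0.70. With 14 libraries 0 of the 40 passed.

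The summed signals of all 8 lists of other cells overlapped between Tfr1-null and control at both ages in 12 libraries. At 10 weeks the GABAergic sum was 13.20 to 13.66 in Tfr1-null and 12.98 to 13.45 in control, and the astrocyte sum 14.25 to 14.71 in Tfr1-null and 14.07 to 14.55 in control. The microglial sum was 11.70 to 12.64 in Tfr1-null and 11.41 to 12.12 in control. In any library at most 1 marker of a list lay under the 25th percentile of the array. Without detection calls this does not show that RNA of each cell type was present. The part of other cells' RNA in the differences was not tested.

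Other genes of the pathway were read from 3 lists, each gene by its probe set of highest mean signal. Of 13 mitochondrial partners of the 8 genes 2 fell and 0 rose at 10 weeks in 12 libraries, beside 8.75% of all genes called, with a median difference of -0.16 beside -0.01 over all genes. Bola3, needed to pass clusters on to lipoate synthesis and the respiratory chain, read 10.26, 10.24 and 10.23 in Tfr1-null, against 10.99, 11.17 and 11.06 in control 10 weeks 2 to 4. Its difference was -0.83 (limma adjusted p = 0.00146). Control 10 weeks 1 read 10.46, nearer to Tfr1-null than to the other controls. Ndufab1, the mitochondrial acyl carrier protein, which binds the Nfs1 complex and is also a complex I subunit, read 13.34, 13.43 and 13.43 in Tfr1-null, against 13.72, 13.70 and 13.81 in those controls. It fell by 0.34 (limma adjusted p = 0.0294). That call was lost in 6 of 12 fits that each left out 1 library, with an adjusted p of up to 0.0791 without Tfr1-null 10 weeks 1, and also with array weights (0.122) and each age alone (0.253). Bola3 passed in all 12 and in both of these fits. For Ndufab1 control 10 weeks 1, at 13.67, lay outside the Tfr1-null range.

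Neither Bola3 nor Ndufab1 passed with 14 libraries, where they differed by -0.67 and -0.33 (limma adjusted p = 0.0646 and 0.0694). With 14 libraries 0.434% of all genes passed at 10 weeks. At 3 weeks 0 of the 13 passed in either library set, where 1.31% of all genes passed in 12 libraries. In 12 libraries 1 of the 13 had an unadjusted p under 0.05 at that age, beside 1865 of all 18193 genes. The smallest p values there in 12 libraries belonged to Lyrm4, the small partner of Nfs1, and to Bola1. These genes differed by 0.28 and 0.27 (limma adjusted p = 0.498 and 0.844). Like the 8 genes, the 3 lists were chosen with earlier results of these data known.

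Cytosolic assembly and the proteins that carry clusters showed no call in the main fit of either library set. Of 10 cytosolic assembly genes 0 passed at 10 weeks and 0 at 3 weeks in 12 libraries in limma, beside 8.75% and 1.31% of all genes. The unadjusted p was under 0.05 for 2 and 0 of them, beside 4667 and 1865 of all 18193 genes. Nubp2, a scaffold subunit, read 9.43, 9.85 and 9.98 in Tfr1-null at 10 weeks, against 10.54, 12.35 and 10.51 in control 10 weeks 2 to 4. Control 10 weeks 3 was the highest of these libraries, and the difference of -1.38 (limma adjusted p = 0.0748) was -0.77 without it (limma adjusted p = 0.0637). Without control 10 weeks 2 or control 10 weeks 4 it was -1.68 or -1.69 and passed (limma adjusted p = 0.0475 and 0.0438). Ciao2a, a targeting factor, differed by -0.70 (limma adjusted p = 0.123), by -0.40 without control 10 weeks 4 (0.245) and by -0.95 without control 10 weeks 3, which passed (0.0412). At 3 weeks Ciao1 and Mms19 had the smallest p, with differences of -0.13 and 0.13. Of 23 iron-sulfur proteins 0 passed at 10 weeks and 0 at 3 weeks in 12 libraries, beside 8.75% and 1.31% of all genes. The unadjusted p was under 0.05 for 2 and 1 of them, beside 4667 and 1865 of all 18193 genes. The tRNA-modifying enzyme gene Elp3 differed by 0.62 at 10 weeks (limma adjusted p = 0.0552). It passed without control 10 weeks 3 (0.0400) or Tfr1-null 10 weeks 3 (0.0349), and in some of the other fits given below. Uqcrfs1, the Rieske protein of complex III, differed by -0.29 at 10 weeks (limma adjusted p = 0.184). At 3 weeks the smallest p belonged to Cdkal1, another tRNA-modifying enzyme, and to the ribosome recycling factor Abce1. These genes differed by 0.31 and 0.22 (limma adjusted p = 0.500 and 0.674). With 14 libraries at 10 weeks Elp3 differed by 0.55, Uqcrfs1 by -0.20, Nubp2 by -1.07 and its partner Nubp1 by 0.26, with limma adjusted p values of 0.109, 0.411, 0.223 and 0.212. The median of the 23 in 12 libraries was 0.04 at 3 weeks and 0.04 at 10 weeks.

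**Figure D3:**
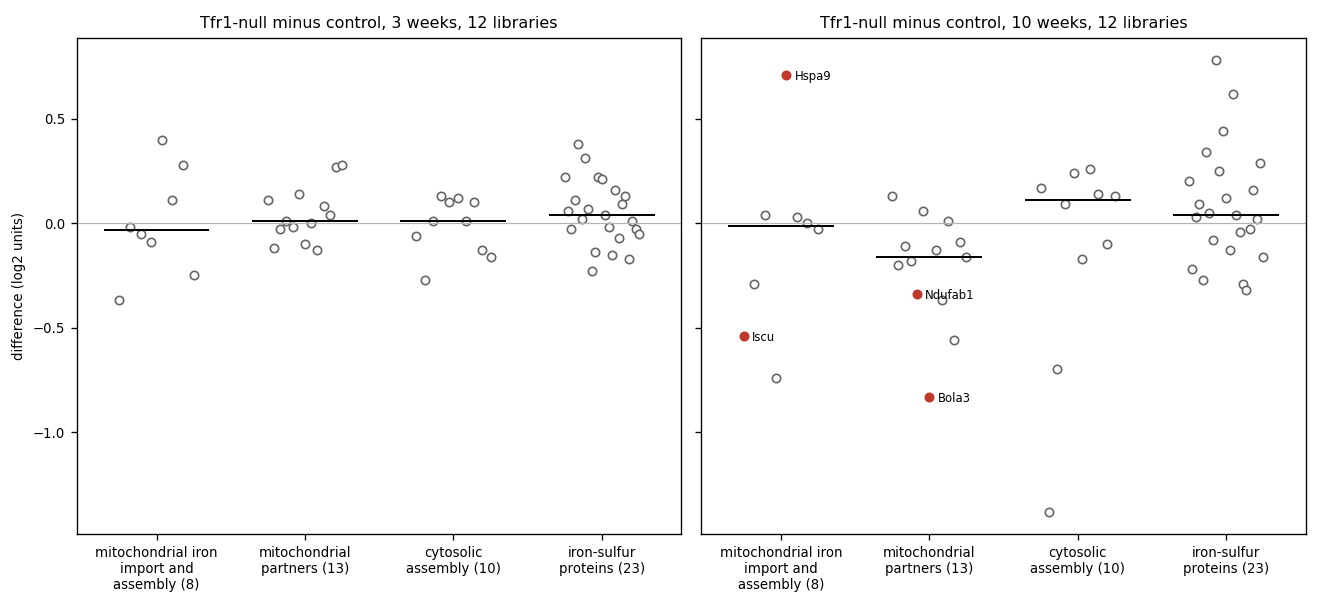
Tfr1-null minus control in log2 units (y axis) at 3 and at 10 weeks in 12 libraries for the 8 genes and the 3 pathway lists (x axis), 1 point per gene, with a line at the median of each list. Filled points passed an adjusted p under 0.05, which at 10 weeks holds for Hspa9, Iscu, Bola3 and Ndufab1 and at 3 weeks for no gene.

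Among the 15 probe sets, some ran against each other once the mean of each age was subtracted, and others were only weakly related. Over 14 libraries Iscu correlated with the Hspa9 probe sets other than 1453811_at at -0.91 to -0.77. Glrx5 correlated with the Nfs1 probe set 1416373_at at 0.86, but with 1431431_a_at at -0.42 and with 1442017_at at -0.24. Its correlation with Iscu was 0.56. Hscb and Slc25a37 correlated at 0.77. Isca1 at 1423651_at correlated with the 5 Hspa9 probe sets at -0.38 to 0.20 and with Glrx5 at -0.11. In 12 libraries its correlation with Glrx5 was -0.61. The other Isca1 probe set, 1423652_at, correlated over 14 libraries with the Hspa9 probe sets at -0.32 to 0.42 and with Glrx5 at -0.74. These libraries share genotypes, arrays and the doubtful labels, and the values are a description with no test.

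**Figure D4:**
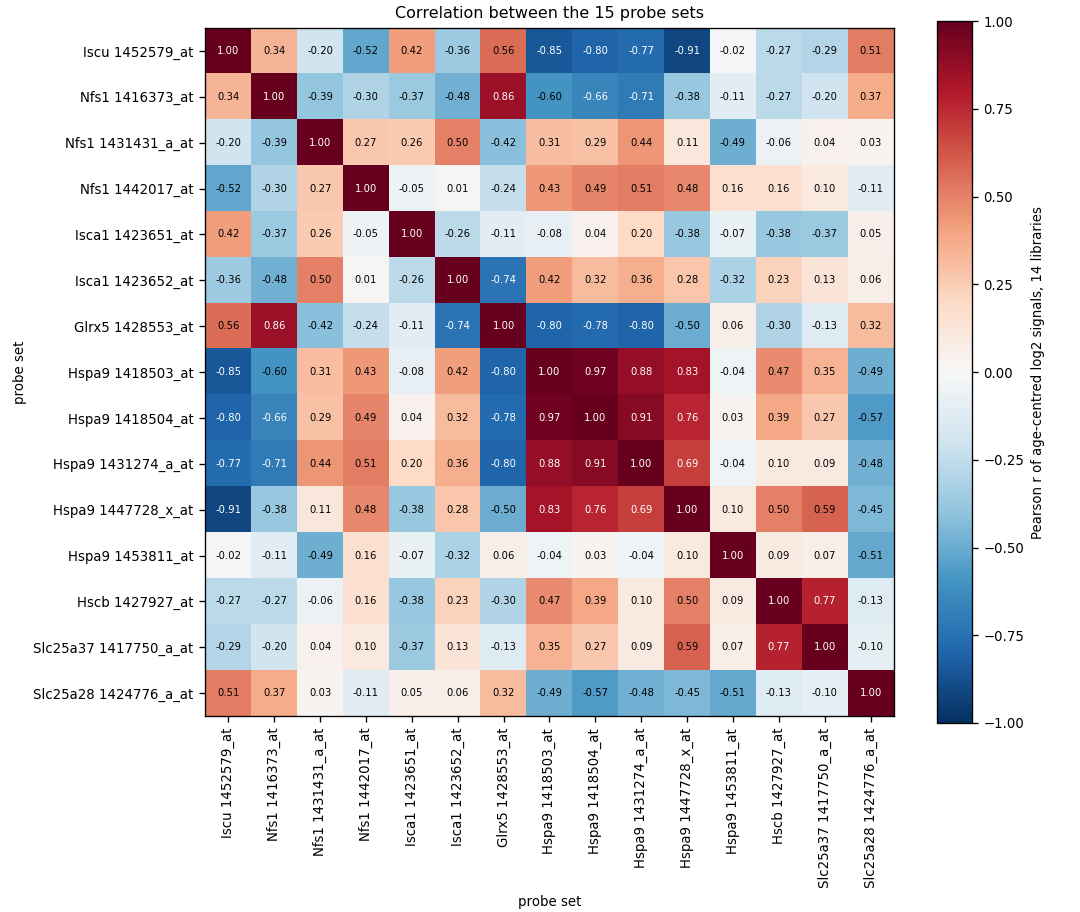
Pearson correlation (colour and number in each cell) of the log2 signals of the 15 probe sets (both axes) over 14 libraries, after subtracting the mean of each age. The Hspa9 probe sets other than 1453811_at form a block at 0.69 to 0.97 and run against Iscu at -0.91 to -0.77.

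The genes most like each of the 8 were sought among 16316 named genes by the same age-centred Pearson correlation over 14 libraries. Iscu was most like Ccdc40 (0.956) and Crb1 (0.952), and Hspa9 most like Oxct1 (0.972), which serves ketone body use, and Tars (0.971), the cytosolic threonyl-tRNA synthetase. Glrx5 was most like the proteasome gene Psma3 (0.945) and the complex I gene Ndufb7 (0.944), and Nfs1 most like Ttc5 (0.914) and Mgat3 (0.906). Isca1 was nearest to Cpped1 (0.927) and Snx9 (0.907), and Slc25a28 to Klhl4 (0.896) and Plxdc2 (0.867). For Hscb the nearest were Tceanc (0.862) and Srsf11 (0.861), and for Slc25a37 Tmed8 (0.860) and Anp32e (0.843). The highest values of so many genes over 14 libraries are large by selection. In 12 libraries the first place passed to another gene for 7 of the 8, all but Nfs1.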

How the data were processed

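The values were log2 signals deposited by the authors, which per the submitters' processing notes were made with robust multi-array averaging (RMA) in Partek 6.5. Per the labels' protocols, 50 ng of RNA per library was amplified with the NuGEN Ovation V2 system and hybridized to Affymetrix arrays. No raw scans were used here, so background correction could not be varied. The table held 45101 probe sets for 14 libraries. After 64 control probe sets were left out, 45037 were tested, of which 34945 carried 1 gene symbol, 932 several and 9160 none, covering 18193 genes.

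All probe sets were fitted with limma (lmFit and eBayes, defaults), giving each of the 4 groups its own mean and each probe set a single spread. The 14-library fit had 10 residual degrees of freedom, the 12-library fit 8, and both a prior of 2.62. Contrasts were Tfr1-null minus control at 3 weeks, at 10 weeks and the difference between these, with p adjusted by Benjamini-Hochberg over all probe sets and called under 0.05. A probe set was taken as not above background where it lay under the 25th percentile of its array. No filter on dim probe sets was used. A marker list's level is the log2 of its summed linear signals.

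The members, gene lists and the 12-library set were chosen with earlier results of these data known. Genes named are all 8 members, Tfrc, up to 4 called genes per direction of each pathway list or the 2 with the smallest p, and the 2 nearest genes by correlation. Further markers and Eif2s3y, Kdm5d and Xist were named after their values were seen. The fitting code was tested on simulated data. Alternatives were array weights, each age alone, 1 probe set per gene, a filter on dim probe sets, quantile normalization within an age, eBayes with trend and robust, the replicate number as a block, and each library left out. The versions were limma 3.58.1 under R 4.3.3, and Python 3.11.15.

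Same-numbered libraries did not deviate together, with correlations of -0.02 to 0.15 at 3 weeks and -0.05 to 0.07 at 10 weeks.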

Additional observations from a re-analysis of the deposited data

Results flagged for a closer look

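In groups of 4 libraries, 30 sets of values of the 15 probe sets were checked for a library far from the others, which chance gives in about 1 of 20 groups. In 5 of them 1 library stood apart, with a gap to its neighbour that took up most of the range of the group (Dixon's test). Of these 5, 3 belonged to Tfr1-null 3 weeks 1, 1 of the 2 libraries with doubtful labels. It read 8.22 for Hscb, against 8.50 in each of the other 3 Tfr1-null libraries. For Slc25a28 it read 9.33, against 9.01 to 9.06. For the dim Nfs1 probe set 1442017_at it read 4.44, against 4.23 in each of the others.

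Control 10 weeks 2 read 8.67 for the Nfs1 probe set 1431431_a_at, against 9.03 to 9.08 in the other controls of that age. Control 10 weeks 3 read 10.65 for Slc25a28, against 10.25 to 10.29.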

How the results depend on the processing

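With 14 libraries, calls among the 15 probe sets at 10 weeks ranged from 0 to 4 when each library was left out, and were 4 only without control 10 weeks 1. Pathway genes called there ranged from 0 to 3, and were 2 with 1 probe set per gene and 1 with trend and robust moderation, against 0. With 12 libraries, the 4 calls at 10 weeks became 1 with array weights, 0 with each age alone, 2 with 1 probe set per gene (fewer were tested) and 0 with the replicate block, and ranged from 3 to 6 when each library was left out. The 2 pathway genes at 10 weeks became 1 with array weights, 1 with each age alone and 0 with the replicate block, with a range of 1 to 4 when each library was left out, the 4 without control 10 weeks 3. Elp3 was called beside these 2 with 1 probe set per gene, with quantile normalization within an age, and with trend and robust moderation (limma adjusted p = 0.0384, 0.0414 and 0.0412). The 6 calls among the 15 were without control 10 weeks 2. At 3 weeks in 12 libraries array weights gave 4 probe sets against 0, where 4.05% of all probe sets passed. Alternatives for single pathway genes were added after seeing the data. The causes were not tested. The sources used here do not say whether the replicate number pairs the libraries, and the few same-numbered pairs cannot settle it. Under the block the 4 called probe sets had limma adjusted p values of 0.121 to 0.238. Why these calls were lost was not tested. No called change turned its sign. The number of arrays limits all of these results, and so does the lack of detection calls.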

Other observations

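The probe set that matches both Slc25a37 and Gm16867 stayed near or under the 25th percentile of its array, at 3.31 to 3.84 in Tfr1-null and 3.26 to 3.44 in control at 3 weeks, and at 4.96 to 5.60 in Tfr1-null and 5.32 to 5.68 in control at 10 weeks.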
